A study of Drosophila melanogaster with 3 samples.

Results

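The mitochondrial ribosomal protein genes were taken as the protein-coding genes whose Ensembl symbol begins with mRpL or mRpS followed by a digit. There were 73 of them among 13968 protein-coding genes, 47 for the large and 26 for the small subunit of the mitochondrial ribosome. Binding at these genes of slouch (slou), an NK-type homeodomain transcription factor of muscle and nerve cells, was read from chromatin immunoprecipitation followed by sequencing (ChIP-seq). All libraries came from whole Drosophila melanogaster embryos of both sexes, 0 to 24 h old, of a single transgenic line (slou-GFP) made to express slou with eGFP at the C-terminus. The antibody was directed against GFP, and the 3 libraries are biological replicates of 1 group. No library from embryos without the fusion was analysed here, and the chromatin came from all embryonic cells, whether or not they contain slou. The peak lists give no read depth.

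Mitochondrial ribosomes translate the few proteins encoded in mitochondrial DNA, all of them subunits of the oxidative phosphorylation complexes in animals. Their RNA comes from the mitochondrial genome, but every one of their proteins is encoded in the nucleus, translated in the cytosol and imported. Many of the proteins have a counterpart in bacterial ribosomes and keep its number, and most of those with higher numbers were added in the mitochondrial lineage. These are broadly expressed genes of cell maintenance.

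A gene was called bound when the summit of a peak on the authors' optimal list lay in the gene body or in the 1 kb upstream of it. The optimal list was the reproducible set that the authors drew from peaks called on the 3 replicates together (the pooled list), and held its 2743 highest-scoring peaks. Peaks are ranked here by the authors' score within each list, with rank 1 the highest. The DNA windows were read from the RefSeq Release 6 genome (dm6 coordinates, counted from 1) and run 5′ to 3′ on the strand of the gene. Capitals mark any of 6 motifs, searched on both strands. They were the DNA replication-related element (DRE) TATCGATA, the motif 1 core GGTCACACT, the E-box CACGTG, the homeodomain core TAATTA, the GAGA element GAGAGA and the nuclear respiratory gene element in the forms TTACGTAA, TTACATAA, TTATGTAA and TTATATAA.

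The windows that follow are the 201 bases centred on the summit of 5 of the 6 best-ranked bound genes, shown as examples of high peaks of the family. The remaining gene of these, mRpL41, is described with its values only. They lie at chr3R:15229425-15229625 (plus strand) for mRpS10, chr2L:13835348-13835548 (minus) for mRpS23, chr3L:2373512-2373712 (minus) for mRpL23, chr2L:4850508-4850708 (minus) for mRpS2 and chr2L:4945391-4945591 (minus) for mRpL24. The summit is base 101 of each. In mRpL23 the transcription start site (TSS) is base 9, and in the other 4 it lies past the right end. The E-box was found in the window of mRpL23 and the homeodomain core in those of mRpS2 and mRpL24.
mRpS10: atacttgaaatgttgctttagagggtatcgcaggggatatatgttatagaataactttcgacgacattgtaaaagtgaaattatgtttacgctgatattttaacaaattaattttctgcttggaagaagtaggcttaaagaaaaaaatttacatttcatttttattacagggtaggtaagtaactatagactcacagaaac
mRpS23: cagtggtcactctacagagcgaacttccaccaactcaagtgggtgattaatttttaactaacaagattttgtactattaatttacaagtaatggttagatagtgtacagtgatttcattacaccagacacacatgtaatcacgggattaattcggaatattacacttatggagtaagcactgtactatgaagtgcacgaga
mRpL23: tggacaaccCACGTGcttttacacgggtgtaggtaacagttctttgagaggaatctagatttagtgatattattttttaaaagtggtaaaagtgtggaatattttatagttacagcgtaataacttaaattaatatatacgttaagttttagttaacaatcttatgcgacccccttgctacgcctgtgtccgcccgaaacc
mRpS2: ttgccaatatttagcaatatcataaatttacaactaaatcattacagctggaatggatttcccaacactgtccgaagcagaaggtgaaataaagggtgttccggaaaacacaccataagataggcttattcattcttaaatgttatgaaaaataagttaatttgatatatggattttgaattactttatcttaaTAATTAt
mRpL24: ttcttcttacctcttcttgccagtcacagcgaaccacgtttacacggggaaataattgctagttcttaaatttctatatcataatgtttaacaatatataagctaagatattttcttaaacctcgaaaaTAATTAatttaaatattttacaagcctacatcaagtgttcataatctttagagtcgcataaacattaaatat

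The promoters of mRpL40 (chr3R:11407668-11407967, plus strand) and mRpS33 (chr3R:16436548-16436847, minus strand) are also shown, from 250 bases before the TSS, with the TSS at base 251. Among members with a pooled-list summit, these are the genes whose best peak ranked lowest. No motif of the set was found in either. Their windows differ from the summit windows in length and placement, so the motifs of these examples cannot be compared between them.
mRpL40: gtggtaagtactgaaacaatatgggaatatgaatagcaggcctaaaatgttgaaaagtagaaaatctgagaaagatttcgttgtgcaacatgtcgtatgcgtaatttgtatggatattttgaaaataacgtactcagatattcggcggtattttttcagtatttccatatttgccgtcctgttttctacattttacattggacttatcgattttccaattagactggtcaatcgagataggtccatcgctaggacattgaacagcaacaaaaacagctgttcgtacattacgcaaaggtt
mRpS33: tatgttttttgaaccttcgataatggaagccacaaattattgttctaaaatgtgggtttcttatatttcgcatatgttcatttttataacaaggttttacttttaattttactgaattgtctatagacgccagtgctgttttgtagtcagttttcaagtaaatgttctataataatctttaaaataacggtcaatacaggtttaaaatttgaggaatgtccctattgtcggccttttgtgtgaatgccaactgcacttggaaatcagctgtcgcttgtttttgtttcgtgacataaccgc

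Of the 73 genes, 26 were bound (35.6%, 95% Wilson interval 25.6 to 47.1), against 19.7% of all protein-coding genes by the same rule. The 26 genes had 26 different peaks, so no summit was shared between members, and none held more than 1 optimal summit. The genes are short, with a median body of 909 bp against 2164.5 bp for all protein-coding genes. Among protein-coding genes with windows of 1390 to 2464 bp, the members' range up to their 90th percentile, 9.98% were bound. A window of equal length for every gene gave a similar count. An optimal summit lay within 500 bp of an own TSS in 25 members (34.2%, interval 24.4 to 45.7), against 15.1% of all protein-coding genes. Intervals cover counting error only, and genes are not replicates, so these shares are set side by side without a test.

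In the lists of the single replicates the share was of the same size. Among the top 2743 peaks of each replicate, a summit lay within 500 bp of a TSS in 25 members in replicate 1, 23 in replicate 2 and 21 in replicate 3. The background over all protein-coding genes was 14.6% in replicate 1, 15.4% in replicate 2 and 14.8% in replicate 3. The mean share of members was 31.5% ± 2.74 (SD, n = 3), and that of all protein-coding genes 14.9% ± 0.423 (SD, n = 3), so the shares of members lay above those of all genes in every replicate. In all 3 replicates at once, 15 members had such a summit (20.5%), against 10% of all protein-coding genes.

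**Figure D1:**
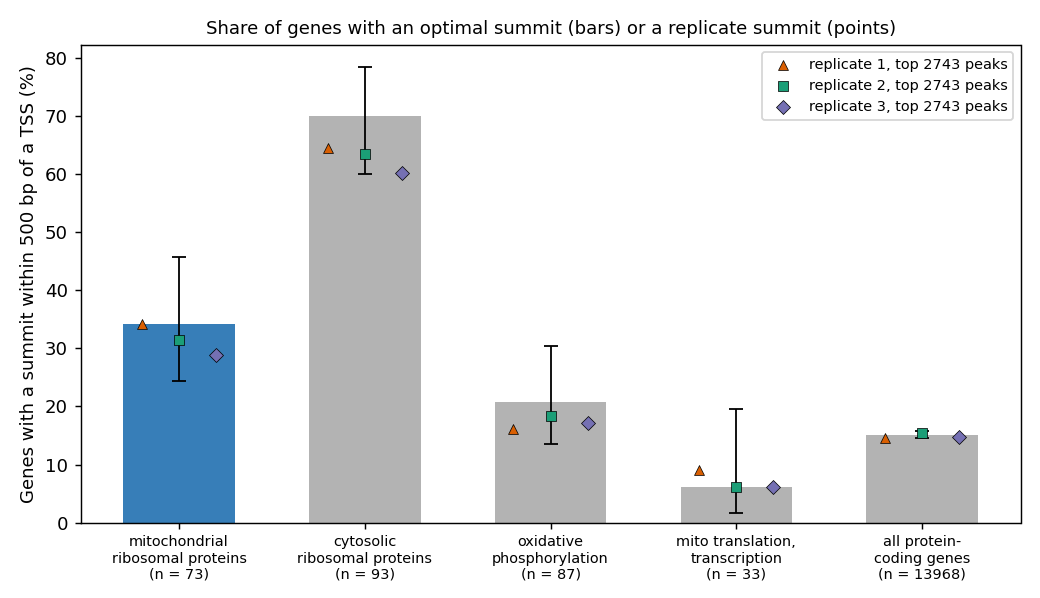
Share of genes in 5 lists with a summit within 500 bp of a TSS, in percent. Bars show the optimal list with 95% Wilson intervals and points show the top 2743 peaks of each replicate; mitochondrial ribosomal protein genes reach 34.2%, below cytosolic ribosomal protein genes at 69.9% and above all protein-coding genes at 15.1%.

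The strongest peak of the family was at mRpL41, which encodes a large-subunit protein with no bacterial counterpart. The peak (chr2R:15217586-15217925, summit 146 bp upstream of the TSS) ranked 3 in the pooled list, with a score of 1330. It ranked 4, 3 and 3 in replicates 1, 2 and 3, so it was among the highest peaks of every library. Together with mRpS10, mRpS23 and mRpL23 it placed 4 of the 73 members (5.48%) among the 100 highest optimal peaks, against 0.981% of all protein-coding genes. That share rests on 4 genes. At mRpS10 and mRpS23 the summit was nearer to the TSS of a neighbouring gene than to that of the member.

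Small-subunit genes with a high peak were led by mRpS10, the counterpart of a bacterial protein of the small-subunit head. Its summit lay in intergenic sequence 140 bp upstream of the TSS, at rank 9 in the pooled list and at 7, 12 and 9 in replicates 1, 2 and 3. The gene mRpS23, which encodes a protein without bacterial counterpart, had an intergenic summit 376 bp upstream, at pooled rank 18 and replicate ranks 33, 14 and 13. The 3 libraries thus placed both peaks among their 33 highest. mRpS2 followed at pooled rank 282, with 299, 223 and 357 in the replicates and a summit 189 bp upstream. The other bound small-subunit genes were mRpS22 (rank 925), mRpS6 (929), mRpS7 (1530), mRpS21 (2089) and mRpS26 (2244). In all, 8 of 26 small-subunit genes were bound (30.8%), with a median pooled rank of 927.

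Large-subunit genes were bound in 18 of 47 cases (38.3%), with a median pooled rank of 1140. The gene mRpL23, whose bacterial counterpart lies at the exit of the peptide tunnel, had its summit inside its own 5′ UTR, 66 bp past the TSS. That peak ranked 31 in the pooled list and 34, 22 and 45 in replicates 1, 2 and 3. The gene mRpL24, whose bacterial counterpart binds early in subunit assembly, had a summit 130 bp upstream, at pooled rank 307 and replicate ranks 277, 480 and 207. These were stable positions high in each list. mRpL20 (pooled rank 530) had ranks of 1147, 420 and 423, and mRpL37 (557) had 562, 559 and 797. mRpL47 (578) had 737, 1372 and 375. For each of these 3 genes all replicates placed the peak well inside the top 2743. mRpL34 (710) was different, with ranks of 9445, 244 and 562, so replicate 1 stood apart from the others for that gene. The remaining bound large-subunit genes, beside the lowest-ranked ones described further on, were mRpL39 (pooled rank 933), mRpL4 (1098), mRpL11 (1181), mRpL42 (1621), mRpL53 (1697), mRpL10 (1972) and mRpL35 (2186).

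The binding was not confined to a class of subunit. Proteins were classed here by number alone, and a higher number does not always mean that a bacterial counterpart is lacking. Among proteins numbered up to 36 in the large and up to 21 in the small subunit, the range of numbers shared with bacteria, 16 of 42 genes were bound. Among those with higher numbers it was 10 of 31. By subunit these counts were 11 of 28 and 7 of 19 in the large, and 5 of 14 and 3 of 12 in the small. The differences between these shares were not tested.

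The bound members had a median rank of 1016 in the pooled list, close to the 1136 of all bound protein-coding genes. For 16 of the 26 the peak overlapped a top 2743 peak of all 3 replicates, for 8 of 2 replicates and for 2 of 1 replicate. The 16 include mRpL27, and 15 had the peak at their own TSS. The share in all 3 was 61.5%, against 66.0% over all bound protein-coding genes. The optimal list was drawn from these same libraries, so this overlap is partly built in. Of the 15 members with the best pooled rank, 14 were matched in all replicates, with mRpL34 the exception. Of the remaining 11, 2 were.

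The lowest-ranked bound members were mRpL51, mRpL27, mRpL32 and mRpL17. The peak of mRpL51 ranked 2372 in the pooled list and 1518, 2237 and 4945 in replicates 1, 2 and 3. That of mRpL32 ranked 2447, with 11330, 2445 and 2141, and that of mRpL17 ranked 2500, with 3907, 2124 and 5075. Each of these 3 peaks was below rank 2743 in at least 1 replicate. The peak of mRpL27 (pooled rank 2409) overlapped replicate peaks at ranks 1429, 940 and 983, each higher than the pooled rank. The summits of those replicate peaks differed in place, and the best summit inside the mRpL27 window ranked 19722, 1525 and 4541 in replicates 1, 2 and 3, so that by this measure only replicate 2 had it in the top 2743.

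**Figure D2:**
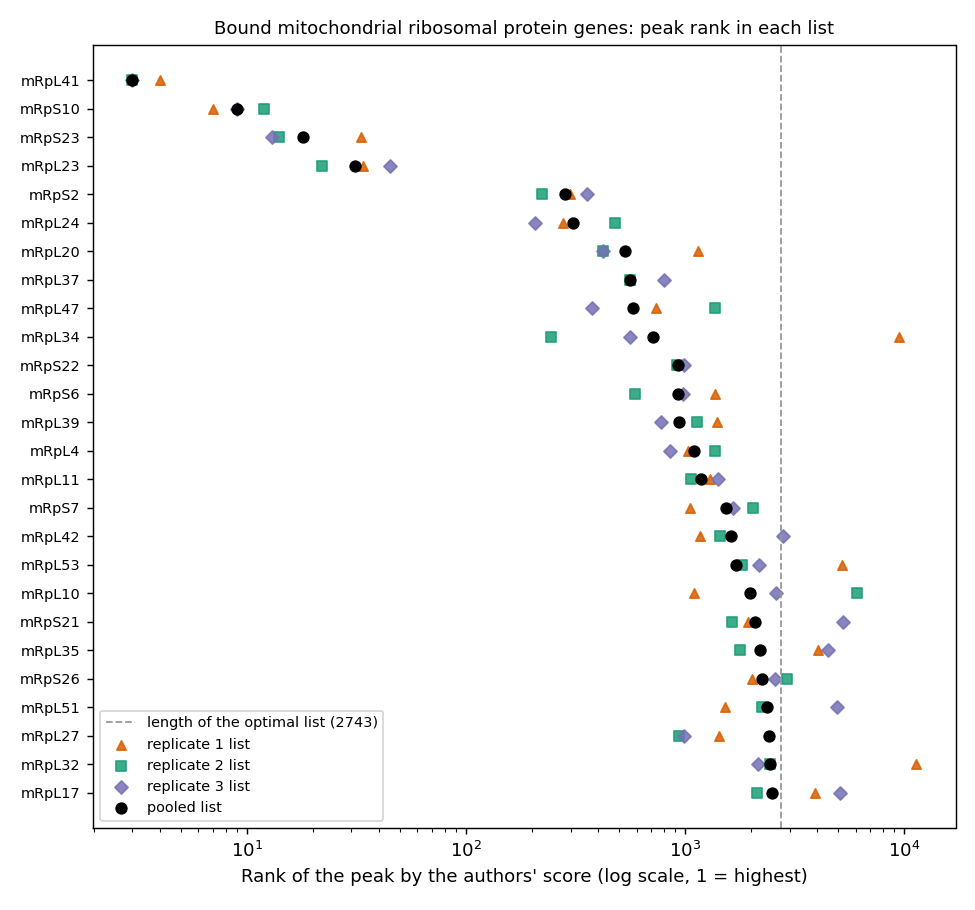
Rank of the best optimal peak of each of the 26 bound genes by the authors' score, on a log axis with 1 the highest, in the pooled list (black) and in each replicate list (coloured). The 4 leading genes rank 45 or higher in every list, and 10 of the 26 fall past rank 2743 (dashed line) in at least 1 replicate.

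The peaks lay just upstream of the TSS. Of the 25 members with an optimal summit within 500 bp of their TSS, 22 had it upstream (88.0%), against 91.6% of the 2111 protein-coding genes so marked. The median position was -124 bp in members and -140 bp over all these genes, and the members ranged from -376 bp at mRpS23 to 66 bp past the TSS at mRpL23. Summits past the TSS were also found at mRpL42, 60 bp into its 5′ UTR, and at mRpL53, 10 bp past a TSS that it shares with CG33155. The peak interval covered the TSS in 18 of the 26 bound members. Most optimal intervals are centred on their summit, with a median width of 390 bp, so this count follows largely from the summit positions. The share over all bound genes was not computed.

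A single bound member had its summit away from its own TSS. In mRpL27 the summit lay 1000 bp past the TSS, in the 3′ UTR at chr2L:4458602. The nearest TSS there was that of RpL27A, a cytosolic ribosomal protein gene, with the summit 238 bp upstream of it. No optimal summit lay within 500 bp of the mRpL27 TSS, and the divergent neighbour of mRpL27, CG15435, was not bound.

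Most members share their upstream sequence with a gene transcribed the other way. A divergent neighbour is here a protein-coding gene on the opposite strand whose TSS lies upstream of the member's TSS by at most 1000 bp. Such a neighbour was present for 56 of 73 members (76.7%, interval 65.8 to 84.9), against 33.3% of all protein-coding genes. The median spacing of the paired TSSs was 287.5 bp in members and 302 bp over all such genes. No neighbour was itself a mitochondrial ribosomal protein gene. Such a neighbour was found for 24 of the 26 bound members (92.3%) and 32 of the 47 others (68.1%).

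The bound members without one were mRpL53 and mRpL10. Among members with a divergent neighbour 23 of 56 had an optimal summit within 500 bp of their own TSS (41.1%, interval 29.2 to 54.1). The background was 28.0% of all protein-coding genes with such a neighbour. Among members without a divergent neighbour it was 2 of 17 (11.8%, interval 3.29 to 34.3), against a background of 8.68%. The lower limit of 29.2% for members with a neighbour was close to the 28.0% of all such genes. The interval of members without one included both 8.68% and 28.0%, so it cannot set the 2 arrangements apart. A peak between paired TSSs is counted for both genes. How far the arrangement sets the members' share was not tested.

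**Figure D3:**
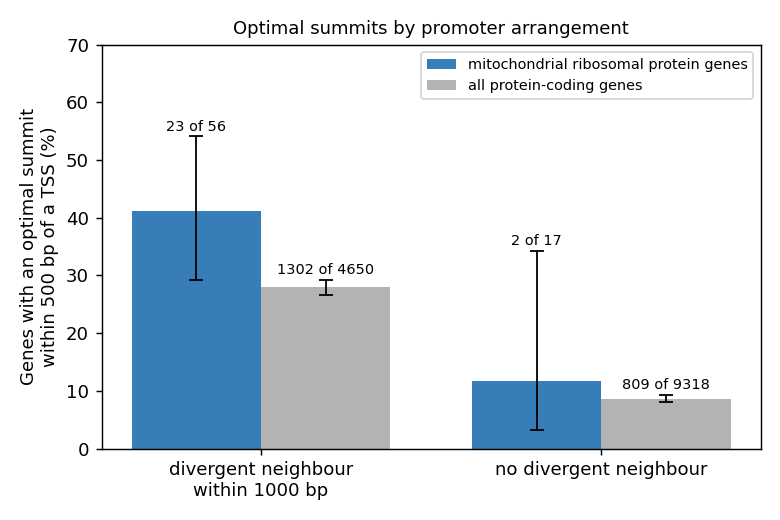
Share of genes with an optimal summit within 500 bp of a TSS, in percent with 95% Wilson intervals, for genes with and without a divergent neighbour. Blue bars are mitochondrial ribosomal protein genes (41.1% and 11.8%) and grey bars all protein-coding genes (28.0% and 8.68%).

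In 18 of the 24 pairs of a bound member the summit lay between the TSSs. The member's TSS was the nearer of the pair in 12 cases, mRpL27 among them, and the neighbour's in 12. The neighbour was itself bound in 23 of the 24 pairs, against 5 of the 32 pairs of members without an optimal summit; a shared peak counts for both genes of a pair, so this contrast is partly built in. The neighbour of mRpL41 was CG8079, with its TSS 762 bp away, and the summit was nearer to mRpL41. By contrast, the summit at mRpS10 was 117 bp upstream of Art3, which encodes a protein arginine methyltransferase, and 140 bp upstream of mRpS10. The summit at mRpS23 was 116 bp upstream of CenG1A, a gene for an Arf GTPase-activating protein, and 376 bp upstream of mRpS23. These high peaks cannot be given to a single gene of the pair from their position.

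Further pairs among the 10 best-ranked members were of several kinds. mRpL23 was paired with CG9004 at 24 bp, and its summit lay on the mRpL23 side. mRpS2 was paired with Mon1, a gene of endosomal trafficking, at 222 bp, and the summit lay 33 bp upstream of Mon1. mRpL24 was paired with betaggt-I, for a subunit of a geranylgeranyl transferase, at 218 bp with the summit 88 bp upstream of betaggt-I. In both pairs the neighbour's TSS was the nearer. mRpL20 was paired with Icmt, an isoprenylcysteine methyltransferase gene, at 399 bp, and its summit lay 128 bp from Icmt. mRpL47 was paired with CG8176 at 99 bp, with the summit 4 bp past the TSS that CG8176 shares with Kdm3, and mRpL34 with Dg, the dystroglycan gene, at 384 bp with the summit 254 bp upstream of Dg. When each summit was given only to the gene with the nearest TSS, 13 members stayed bound (17.8%), against 13.8% of all protein-coding genes.

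**Figure D4:**
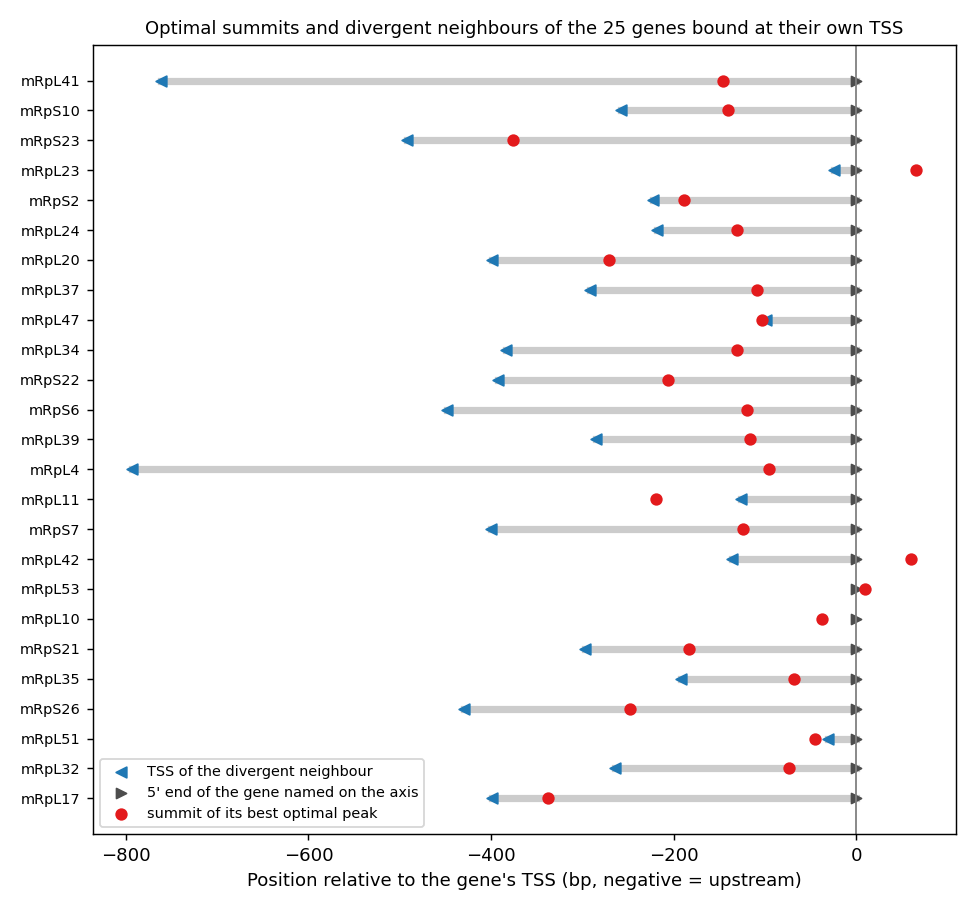
Position of the best optimal summit (red) relative to the TSS of each of the 25 genes with a summit within 500 bp, in bp with upstream negative, and the TSS of the divergent neighbour where there is one (blue). Summits lie between -376 and 66 bp, most of them in the stretch between the paired TSSs.

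Of the 73 members, 47 had no optimal summit, but most of these carried a weaker peak. A pooled-list summit lay in the window of 32 of the 47, at a median rank of 7196.5, and within 500 bp of a TSS in 29 of the 32. Its median position was -122 bp, close to that of the optimal summits. Counting all 73 members, a pooled-list summit lay in the window of 58 (79.5%, background 63.2%) and within 500 bp of a TSS in 55 (75.3%, background 48.3%). The pooled list holds background as well as signal, so such a summit is no call of binding.

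The members nearest to the threshold were mRpL18, mRpS17, mRpS9, mRpS24, mRpL2 and mRpL21. The best peak of mRpL18 ranked 2763 in the pooled list, just past the 2743 of the optimal list, and the best in its window ranked 2079, 4838 and 3357 in replicates 1, 2 and 3. For mRpS17 the pooled rank was 3047 and the replicate ranks 2458, 7190 and 1960. Both genes thus had a peak inside the top 2743 in at least 1 replicate, as did 5 of these 6 genes. mRpS24 (3195) had 2040, 6701 and 6564, and mRpL21 (3773) had 2381, 14221 and 7342. For mRpS9, a gene of 13391 bp, the best summit (3131) lay in the gene body 6996 bp past the TSS. For mRpL2, which encodes a protein of the peptidyl transferase centre, it ranked 3561 and lay 608 bp upstream, while its divergent neighbour FoxK was bound. The other 26 members with a weaker peak ranked from 3790 at mRpL54 to 27881 at mRpS33.

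No pooled-list summit was found in the window of 15 members. These were mRpL1, mRpL9, mRpL12, mRpL14, mRpL15, mRpL16, mRpL30, mRpL38, mRpL44, mRpL46, mRpL50, mRpS14, mRpS18C, mRpS28 and mRpS35. For 7 of them, mRpL9, mRpL12, mRpL14, mRpL15, mRpL30, mRpL50 and mRpS28, no replicate list held a summit there either. Among these, mRpL12 encodes the stalk protein that recruits translation factors. In the other 8 the best replicate peak was weak, as at mRpL16 (rank 9748 in replicate 1), with mRpL1 the highest at rank 3899 in replicate 2. The lists end at 30000 peaks, so a weaker signal would not appear in them.

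Bound members were found on each large autosomal arm and not on the X chromosome. An optimal summit lay within 500 bp of a TSS in 7 of 12 members on 2L, 4 of 12 on 2R, 6 of 17 on 3L and 8 of 21 on 3R. On X it was 0 of 11 members, which allows a share of up to 27.3% when 3 genes are taken as the limit of a count of 0. On the autosomes together it was 25 of 62 members (40.3%, interval 29.0 to 52.7), above that limit. The background was 12.8% of protein-coding genes on X and 15.6% on the autosomes. The 12.8% lay inside the limit for members on X, so their count is not set apart from all genes there. The count on X was below the share of the members elsewhere. On X, 13 of 15 cytosolic ribosomal protein genes (86.7%) and 4 of 13 oxidative phosphorylation subunit genes (30.8%) had such a summit. The cytosolic share was above the members' limit of 27.3%. The oxidative phosphorylation share was close to that limit and rests on 13 genes, so these counts cannot set that list apart from the members. The difference between X and the autosomes was noticed in the values and was not tested. The limit of 27.3% does not allow for that choice of arm. No member on X had a summit within 500 bp among the top 2743 peaks of any replicate. Divergent neighbours were present for 8 of the 11 members on X (72.7%), against 32.5% of all protein-coding genes on X. Pooled-list summits within 500 bp were present at 5 of the 11 (45.5%), close to the 46.1% of all protein-coding genes on X. The best in a window was that of mRpS25 at rank 5873.

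**Figure D5:**
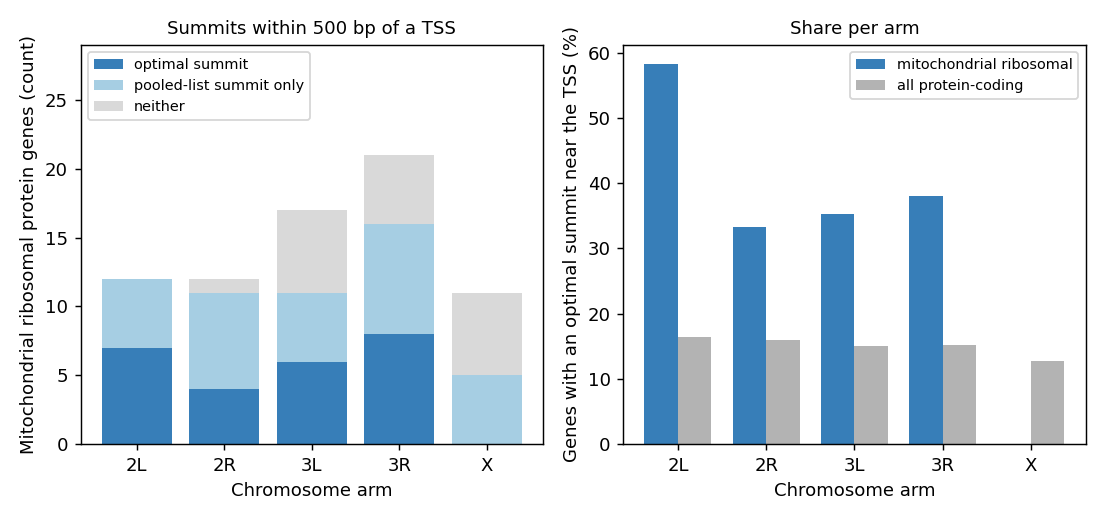
Mitochondrial ribosomal protein genes by chromosome arm. Left, the number with an optimal summit, a pooled-list summit only or neither within 500 bp of a TSS; right, the percentage with an optimal summit beside that of all protein-coding genes, with 0 of 11 on X.

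Other genes of the same organelle pathway were called by the same rule. Of 33 genes for mitochondrial translation factors, tRNA synthetases and transcription, 3 were bound (9.09%, interval 3.14 to 23.6), against 19.7% of all protein-coding genes, a share inside that interval. They were LeuRS-m, a mitochondrial leucyl-tRNA synthetase gene (rank 277, summit 941 bp upstream), mEFTu1, for an elongation factor (1905, 318 bp upstream), and mIF2, for an initiation factor (2298, 251 bp upstream). Within 500 bp of a TSS the count was 2 of 33 (6.06%, interval 1.68 to 19.6), against 15.1%. The genes tko and bonsai, which encode mitochondrial ribosomal proteins under other names, are in this list and were not bound. Of 17 genes of the list with a divergent neighbour, 0 had an optimal summit within 500 bp of their TSS, which allows a share of up to 17.6% by the same limit of 3 genes, against 28.0% of all protein-coding genes with such a neighbour.

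Oxidative phosphorylation subunit genes, whose products include the partners of what these ribosomes make, were bound in 19 of 87 cases (21.8%, interval 14.5 to 31.6). The share over all protein-coding genes, 19.7%, was inside that interval. Cytosolic ribosomal protein genes were bound in 65 of 93 (69.9%). Within 500 bp of a TSS the shares were 34.2% for mitochondrial ribosomal, 20.7% for oxidative phosphorylation and 69.9% for cytosolic ribosomal protein genes. The background for this window was 15.1%, inside the interval of oxidative phosphorylation genes (13.5 to 30.4). A divergent neighbour was present for 76.7%, 42.5% and 59.1% of these lists in the same order, and for 51.5% of the 33 translation and transcription genes. All were above the 33.3% of all protein-coding genes. Among genes with such a neighbour the shares within 500 bp were 41.1%, 29.7% and 74.5% in the same order, against 28.0% of all such genes. Among genes without one they were 11.8%, 14.0% and 63.2%, against 8.68%. The differences between lists were not tested.

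Promoters of 300 bases, 250 before and 50 after the TSS, were searched for the 6 motifs given above. The DRE was found in 7 of 26 promoters of bound members and 8 of 47 promoters of the other members. Over all members it was in 20.5%, against 9.36% of all protein-coding promoters and 16.5% of those with a divergent neighbour. The genes with a DRE and an optimal summit were mRpS23, mRpL20, mRpL39, mRpL4, mRpL10, mRpL32 and mRpL17. The homeodomain core was in 20.5% of member promoters, against 20.4% of all promoters and 23.9% of those with a divergent neighbour. The motif 1 core was in 8 of 73 member promoters (11%), against 6.04% of all and 10.8% of those with a divergent neighbour. The GAGA element was in 5 (6.85%), against 12.3% and 8.22%. For both motifs the members were closer to the promoters with a divergent neighbour than to all promoters. The nuclear respiratory gene forms were in 6 (8.22%), against 5.18% of all and 5.87% of those with a divergent neighbour, and the E-box in 5 (6.85%), against 4.2% and 4.8%.

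Within 50 bp of the summit the motifs were rare in bound members. Of 26 windows, 2 held the homeodomain core, at mRpL24 and mRpL51 (7.69%, against 10.8% of all optimal summits), and 1 held the DRE, at mRpL10 (3.85%, against 2.77%). The other 4 motifs were in none of them. A and T made up 68.3% ± 9.28 of these windows, and 66.7% ± 8.68 of those at all optimal summits (SD over windows), a difference smaller than either spread. Promoters of bound members had 65.0% ± 5.19 A and T and those of the other members 63.5% ± 6.69. All protein-coding promoters had 60.9% ± 7.81.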

How the data were processed

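The data are dm6 peak lists from anti-GFP ChIP-seq on slou-GFP embryos, in 3 biological replicates. The authors called peaks against a control alignment, once per replicate and once on the 3 together (30000 peaks each), and derived the optimal list of 2743 peaks from these lists, per the deposited README files. No source used here names the aligner or the peak caller. The score of a peak is the authors' own value on an unstated scale and was used to order peaks inside a list. The −log10 q deposited by the authors entered no call. All optimal peaks were the top 2743 of the pooled list. The dm3 lists were not used here.

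Genes and TSSs came from Ensembl release 115 (BDGP6), with TSSs from protein-coding transcripts and the 5′ end of the gene for divergent pairs. The summit is the peak start plus the summit offset, and was the midpoint of the interval for 2435 of the 2743 optimal peaks. Replicate peaks were matched by an overlap of at least 1 bp. Python 3.11.15 with pandas 2.3.3 was used, and the calling rules were tested on simulated data. With 1 group, and the control alignment not used here, no test was made. Counts of members stand beside all protein-coding genes, with 95% Wilson intervals. Depth is unknown. Of 34 related genes asked for, 1 was not matched. Named genes are the 10 best and 4 worst ranked bound members, bound members away from their TSS, the 6 unbound members with the best pooled rank and all without a pooled-list summit, and others were chosen after their values were seen. The divergent pair of 1 of the 10 best-ranked members is not reported here. The members, lists and rules were chosen with earlier results of these data known.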

Additional observations from a re-analysis of the deposited data

How the results depend on the processing

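Counts were recomputed under other settings. The 26 bound members became 25 to 28 with other windows, with peak overlap in place of the summit or with tko and bonsai added. Over these settings 15.1% to 21.6% of all protein-coding genes were bound. They became 15 with the higher-scoring part of the optimal list (11.5% of all protein-coding genes), 16 with peaks matched in all replicates (13.0%), 14 with 50% reciprocal overlap (11.5%) and 13 with assignment to the nearest TSS (13.8%). Leaving out each replicate in turn, which kept peaks matched in both others, gave 18 to 19 bound members. The 25 members with a summit near their TSS became 22 within 250 bp (12.1% of all genes) and 26 within 1000 bp (17.2%). With the higher-scoring peaks they became 15 (8.78%). The 56 with a divergent neighbour became 51 within 500 bp (24.9% of all genes) and 23 within 250 bp (12.7%). In all these settings the share of members was above that of all protein-coding genes. The shares were closest with assignment to the nearest TSS, at 17.8% of members against 13.8% of all genes. No interval was computed for that setting, so it does not show an excess beyond counting error. The median rank of 1016 was 1158.5 in replicate 1, and 710 to 925 when a replicate was left out, which removes lower peaks. The lists carry no depth, so a missing peak is not an absence of binding.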
